A study of Mus musculus with 36 samples.

Results

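The genes described here are 10 regulators and products of fat cell formation, out of 24411 genes listed by symbol for every RNA-seq library. They were taken by name, with no threshold on a measured value but with earlier results of these data known. Of these, 6 encode transcription factors that drive or mark the adipocyte fate (Pparg, Cebpa, Cebpb, Cebpd, Zfp423 and Ebf2), and 4 encode proteins of lipid uptake, storage or secretion by fat cells (Lpl, Fabp4, Plin2 and Adipoq). The cells were mesenchymal stem cells (MSCs), adherent stromal cells of C57BL6/J mice 8 weeks of age, grown on collagen-coated dishes in MesenCult medium and used within 3 passages. The 4 groups were fBM-MSCs from femoral bone marrow (3 RNA-seq libraries), vBM-MSCs from vertebral bone marrow (2), A-MSCs from adipose tissue (3) and P-MSCs from lung (3). The cells carried no transgene and were given no differentiation stimulus. All groups shared the same culture medium, with MesenPure and a Rock inhibitor. Marrow cells were released by crushing bone, whereas adipose and lung tissue was minced and digested with collagenase. Between marrow and non-marrow MSCs, the effects of isolation and of origin therefore cannot be told apart. The library of vBM-MSC replicate 3 was not used here. The tissues came from the same 3 mice, but the libraries that share a mouse are not named. ATAC-seq, which marks open chromatin by where a transposase can insert adaptors, gave 1 list of peak summits per tissue from pooled samples, with no replicates.

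Adipocyte formation is a relay of transcription factors. CEBPB and CEBPD are induced first and act on the genes of PPARG and CEBPA, which then maintain each other and switch on the genes of the mature fat cell. ZFP423 and EBF2 act earlier, in committed progenitors, where ZFP423 raises Pparg and EBF2 is linked to brown and beige fat. Among the products, LPL releases fatty acids from circulating lipoproteins, FABP4 carries them inside the cell, PLIN2 coats lipid droplets in many cell types, and ADIPOQ (adiponectin) is a hormone made by mature adipocytes. MSCs of marrow and fat are commonly tested for their ability to become adipocytes.

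The promoters that the results return to are shown here, so that open and closed start sites can be compared by their sequence. Each is the 250 bases before a RefSeq start site of GRCm38.p6 (the coordinates of mm10), read 5′ to 3′ on the strand of the gene. RefSeq windows were matched by symbol for 6 of the 10 genes, at 9 start sites. The Pparg window lies before the downstream start site, that of the adipocyte isoform Pparg2, at chr6:115421816-115422065 on the plus strand. The Cebpa window is chr7:35119043-35119292, plus strand, and the Plin2 window is chr4:86670060-86670309, minus strand. The Adipoq window is chr16:23146286-23146535, plus strand. Capitals mark matches, on either strand, to the C/EBP motif TTGCNNAA, the AP-1 motif TGANTCA, the PPAR element AGGTCA (a single arm of its paired site) or the EBF motif CCCNNGGG.
Pparg: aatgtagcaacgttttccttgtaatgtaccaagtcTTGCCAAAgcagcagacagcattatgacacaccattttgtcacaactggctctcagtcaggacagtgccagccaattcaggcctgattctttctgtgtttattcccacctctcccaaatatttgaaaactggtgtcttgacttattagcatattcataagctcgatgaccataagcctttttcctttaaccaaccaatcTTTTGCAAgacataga
Cebpa: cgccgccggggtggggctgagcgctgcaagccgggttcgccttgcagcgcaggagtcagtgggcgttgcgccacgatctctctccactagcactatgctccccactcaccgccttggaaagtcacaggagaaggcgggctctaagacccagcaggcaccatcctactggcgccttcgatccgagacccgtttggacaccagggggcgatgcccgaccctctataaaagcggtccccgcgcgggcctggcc
Plin2: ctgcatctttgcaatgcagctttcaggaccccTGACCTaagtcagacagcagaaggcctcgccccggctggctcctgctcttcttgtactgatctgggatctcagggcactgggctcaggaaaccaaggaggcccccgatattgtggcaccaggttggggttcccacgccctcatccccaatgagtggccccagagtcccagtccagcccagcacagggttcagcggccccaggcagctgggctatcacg
Adipoq: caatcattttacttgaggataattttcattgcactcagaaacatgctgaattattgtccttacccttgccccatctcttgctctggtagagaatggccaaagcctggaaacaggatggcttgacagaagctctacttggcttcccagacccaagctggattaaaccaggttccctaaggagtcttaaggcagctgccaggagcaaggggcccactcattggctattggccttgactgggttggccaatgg
The Pparg2 window held 2 C/EBP matches, from 215 to 208 and from 16 to 9 bases before the start. A C/EBP match was found in 9.56% of all 32851 RefSeq windows of this length. The Plin2 window held 1 PPAR element on the opposite strand, a motif found in 14.0% of all windows. The Cebpa and Adipoq windows held none of the 4 motifs, which says only that these letters are not in these 250 bases.

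The RNA-seq depth was 19569650 to 40517739 expected counts per library. Of 24411 genes, 12509 had a CPM (count scaled to library depth) of at least 1 in at least 2 libraries and were tested with edgeR. This filter kept 9 of the 10 genes and left out Zfp423. Levels are given as TPM (transcript abundance scaled for length and depth), so that genes can be compared with each other, and differences as fitted log2 folds with their SE. Levels of the 10 genes spanned a wide range, from a mean TPM over the 11 libraries of 0.175 for Zfp423 to 250.4 for Plin2. Cebpb (45.8), Fabp4 (46.6) and Cebpd (19.3) followed Plin2, and Lpl (7.08), Pparg (5.67), Adipoq (2.12), Cebpa (1.73) and Ebf2 (1.57) were low.

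**Figure D1:**
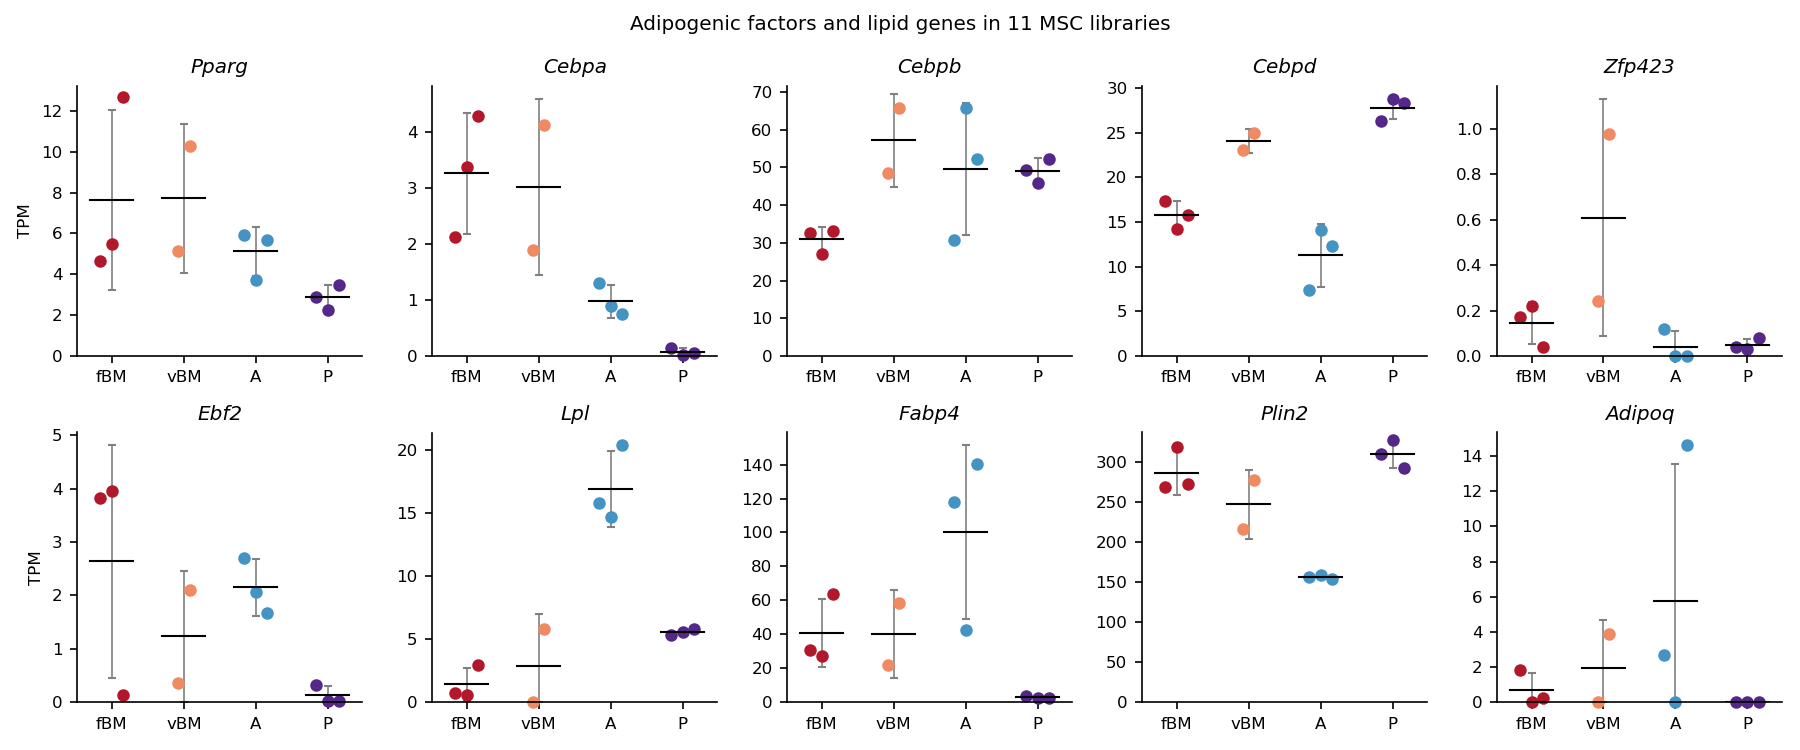
TPM of the 10 genes in each of the 11 libraries (points), by tissue of origin (fBM, vBM, A and P for femoral marrow, vertebral marrow, adipose and lung). Black lines are group means and grey bars ± 1 SD, ended at 0 where they would cross it; Cebpa was highest in both marrow groups (means 3.26 and 3.01), Lpl and Fabp4 in A-MSCs (17.0 and 100.2), and P-MSCs had the lowest Pparg, Cebpa, Ebf2, Fabp4 and Adipoq.

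Of the 9 genes tested, 8 differed among the 4 tissues (F test of edgeR, Benjamini-Hochberg adjusted p under 0.05), where 60.6% of all tested genes did. The exception was Adipoq (adjusted p = 0.0857), which passed with no filter on low counts (0.0377), without vBM-MSC replicate 2 (0.0429) or without A-MSC replicate 2 (0.0398). The calls of Cebpa, Cebpd, Fabp4 and Plin2 held when any 1 library was left out. Those of Cebpb, Ebf2, Pparg and Lpl did not: Cebpb was lost in 8 of the 11 such fits (adjusted p up to 0.135, without fBM-MSC replicate 2), Ebf2 in 7 (up to 0.121, without P-MSC replicate 3), Pparg in 3 (up to 0.104, without P-MSC replicate 2) and Lpl in 2 (0.050 without A-MSC replicate 1 and 0.0687 without A-MSC replicate 3). The Ebf2 call was also lost by limma-trend on log2(TPM + 1) (adjusted p = 0.0563). Where vBM-MSCs are left with 1 library, that library is assumed to vary like those of the other tissues. Libraries of different tissues from the same mouse are not independent, and the tests treat them as if they were. In bulk libraries, fewer cells that express a gene and less RNA per cell cannot be told apart.

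Cebpa (chr7:35119293-35121928), which encodes a factor of terminal adipocyte differentiation, showed the clearest split between marrow and the other tissues. Its TPM was 2.13, 3.38 and 4.28 in the fBM-MSCs and 1.90 and 4.13 in the vBM-MSCs. It was 1.31, 0.890 and 0.740 in the A-MSCs and 0.150, 0.0200 and 0.050 in the P-MSCs, the last from 10, 1 and 3 counts. Every marrow library was above every other library, and A-MSCs lay between marrow and P-MSCs without overlap. The fitted fold of marrow over non-marrow MSCs was 3.50 ± 0.43 on the log2 scale (adjusted p = 5.16e-05). The 4 tissues ran from fBM-MSCs (mean 3.26 ± 1.08 SD, n = 3) and vBM-MSCs (3.01 ± 1.58, n = 2) through A-MSCs (0.980 ± 0.295, n = 3) to P-MSCs (0.0733 ± 0.0681, n = 3). The 2 marrow groups overlapped and did not pass the test (log2 difference 0.18 ± 0.57, adjusted p = 0.875). fBM-MSCs were above A-MSCs (1.67 ± 0.53, adjusted p = 0.0254), but this call was lost without fBM-MSC replicate 2 or 3 or A-MSC replicate 2 or 3 (adjusted p from 0.0578 to 0.0817). vBM-MSCs and A-MSCs did not overlap, and their difference of 1.48 missed the threshold (adjusted p = 0.0772) but passed by DESeq2 (0.0400). A-MSCs were above P-MSCs by 3.85 ± 0.63 (adjusted p = 0.00116), and by 3.44 to 4.88 over the fits without 1 library, highest without P-MSC replicate 1.

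Pparg (chr6:115360951-115490401), the nuclear receptor required for adipocyte formation, was higher in marrow MSCs as a group, with a smaller difference. Its TPM was 4.67, 5.50 and 12.7 in the fBM-MSCs, 5.13 and 10.3 in the vBM-MSCs, 5.94, 3.72 and 5.69 in the A-MSCs and 2.91, 2.26 and 3.48 in the P-MSCs. fBM-MSC replicate 3 and vBM-MSC replicate 2 were the 2 highest libraries, and the remaining marrow libraries overlapped the A-MSCs. The fold of marrow over non-marrow MSCs was 0.97 ± 0.28 on the log2 scale (adjusted p = 0.0153), and without vBM-MSC replicate 2 it was 0.73 with the call lost (adjusted p = 0.0810). P-MSCs were the lowest, by 1.48 ± 0.39 from fBM-MSCs (adjusted p = 0.00873, and 0.93 without fBM-MSC replicate 3, adjusted p = 0.0429) and by 1.38 ± 0.42 from vBM-MSCs (adjusted p = 0.0227). The latter call was lost without vBM-MSC replicate 2 (adjusted p = 0.188) and without P-MSC replicate 1 or 2 (0.0575 and 0.0750). Among neighbours in the order of mean TPM, vBM-MSCs and fBM-MSCs (adjusted p = 0.918) and fBM-MSCs and A-MSCs (0.270) overlapped and did not pass. A-MSCs and P-MSCs did not overlap, and their log2 difference of 0.92 missed the threshold (adjusted p = 0.0930) but passed with only these 2 tissues in the fit (0.0259) or without fBM-MSC replicate 3 (0.0372). The TPM counts all Pparg transcripts together, so the share of the adipocyte isoform is not known from it.

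Over the 9 genes, 4 were higher in marrow than in non-marrow MSCs, against 24.8% of all tested genes, and 1 was lower, against 22.4%. The 4 were Cebpa, Pparg, Fabp4 and Plin2 and the 1 was Lpl. Cebpb, Cebpd, Ebf2 and Adipoq did not pass. For Cebpa, Fabp4, Lpl and Plin2 the 2 non-marrow groups lay far from each other, so the mean of A-MSCs and P-MSCs describes neither, and the values by tissue follow. Plin2 in particular had its highest mean TPM in P-MSCs (310.2).

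**Figure D2:**
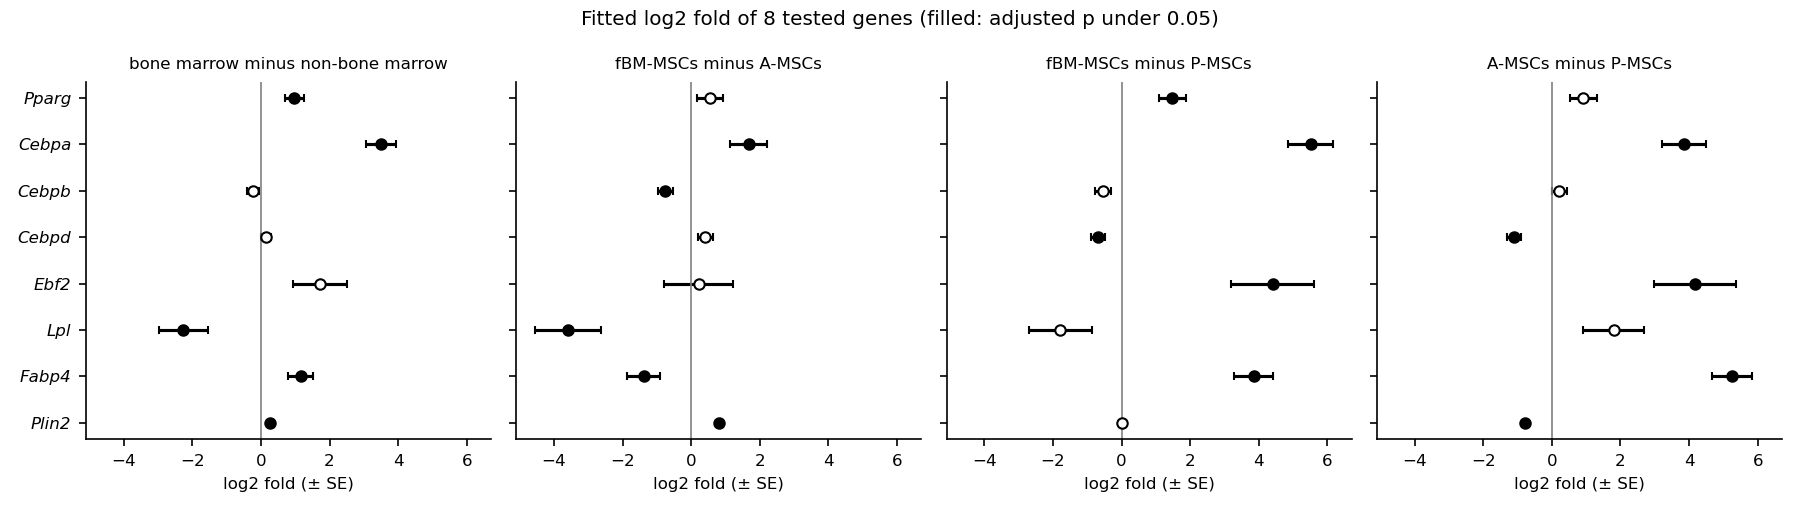
Fitted log2 folds of 8 tested genes (points, with bars of ± 1 SE) for marrow against non-marrow MSCs and for 3 pairs of tissues; filled points passed an adjusted p of 0.05. Cebpa was on the positive side in all 4 panels, Fabp4 changed side between fBM-MSCs minus A-MSCs (-1.39) and fBM-MSCs minus P-MSCs (3.85), and Adipoq is left out because P-MSCs had no count of it.

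The early factors Cebpb (chr2:167688915-167690432) and Cebpd (chr16:15887286-15889545) were expressed at higher levels than Pparg and Cebpa in every library, and neither passed the test between marrow and non-marrow MSCs. Cebpb TPM was 32.6, 27.1 and 33.2 in the fBM-MSCs, 48.5 and 65.9 in the vBM-MSCs, 30.8, 65.7 and 52.3 in the A-MSCs and 49.4, 45.9 and 52.3 in the P-MSCs. fBM-MSCs were the lowest group, and A-MSC replicate 1 was as low as they were. Cebpb was the only one of the 9 genes called between the 2 marrow groups, a comparison in which 12.8% of all genes were called, and it was lower in fBM-MSCs by 0.83 ± 0.25 on the log2 scale (adjusted p = 0.0488). That call sits at the threshold and was lost in 9 of the 11 fits without 1 library (adjusted p up to 0.152, without vBM-MSC replicate 2). It was also lost with library totals only (0.0560), only these 2 tissues (0.0722) or the replicate block (0.0672). fBM-MSCs were also below A-MSCs, with a log2 difference of -0.75 ± 0.22 (adjusted p = 0.0197). The latter call was lost without fBM-MSC replicate 2 (0.0761), A-MSC replicate 2 (0.0910) or A-MSC replicate 3 (0.0585), and with only these 2 tissues (0.0512). Against P-MSCs the difference was -0.54 and missed the threshold (adjusted p = 0.0674), but it passed with only these 2 tissues (0.0114), with library totals only (0.0310), by limma-trend (0.0289 and 0.0298) or without A-MSC replicate 1 (0.0103) or 2 (0.0429). Between marrow and non-marrow MSCs the log2 difference was -0.23 (adjusted p = 0.280), and without A-MSC replicate 1 it was -0.36 and passed (adjusted p = 0.0243).

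Cebpd was highest in lung and lowest in adipose MSCs. Its TPM was 17.3, 14.2 and 15.8 in the fBM-MSCs, 23.1 and 25.0 in the vBM-MSCs, 7.36, 14.1 and 12.3 in the A-MSCs and 26.3, 28.8 and 28.3 in the P-MSCs. Every P-MSC library was above every library of the other tissues, and every A-MSC library was below every library of the other tissues, although A-MSC replicate 2 was close to fBM-MSC replicate 2. The log2 difference between A-MSCs and P-MSCs was -1.10 ± 0.21 (adjusted p = 0.00246) and that between vBM-MSCs and A-MSCs 0.97 ± 0.23 (adjusted p = 0.00934). fBM-MSCs were below P-MSCs (-0.69 ± 0.21, adjusted p = 0.0164), a call lost without fBM-MSC replicate 2 (0.0676). The pairs vBM-MSCs and P-MSCs (adjusted p = 0.694), fBM-MSCs and vBM-MSCs (0.129) and A-MSCs and fBM-MSCs (0.132), neighbours in the order of the levels, did not overlap but missed the threshold. That between the 2 marrow groups, a log2 difference of -0.56, passed without A-MSC replicate 1 (0.0299). The last exon of Cebpd overlaps the end of Spidr on the other strand, and the libraries do not keep strand, so reads of the overlap cannot be assigned by strand.

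The progenitor factors Ebf2 (chr14:67233292-67430952) and Zfp423 (chr8:87661810-87959595) were low. Ebf2 TPM was 3.82, 3.96 and 0.130 in the fBM-MSCs, 0.370 and 2.10 in the vBM-MSCs, 2.71, 2.07 and 1.67 in the A-MSCs and 0.330, 0.0300 and 0.0300 in the P-MSCs. The A-MSC libraries were alike, whereas each marrow group held 1 library near the level of the P-MSCs, fBM-MSC replicate 3 and vBM-MSC replicate 1. Ebf2 was higher in fBM-MSCs than in P-MSCs by 4.40 ± 1.20 on the log2 scale (adjusted p = 0.0102) and higher in A-MSCs than in P-MSCs by 4.18 ± 1.19 (adjusted p = 0.0203). Without P-MSC replicate 1, the highest of the P-MSCs, these were 6.61 and 6.39. The difference between vBM-MSCs and P-MSCs, 3.22, missed the threshold (adjusted p = 0.0550) but passed by DESeq2 (0.0473), with no filter on low counts (0.0325) or with only these 2 tissues (0.0469). The call between A-MSCs and P-MSCs was lost without P-MSC replicate 2 (0.0725) or 3 (0.0750). Marrow and non-marrow MSCs did not pass (1.72 ± 0.79, adjusted p = 0.0927), but did without fBM-MSC replicate 3 (2.01, adjusted p = 0.0130) or without P-MSC replicate 1 (2.83, adjusted p = 0.0231), while the fold was 0.92 without vBM-MSC replicate 2 (adjusted p = 0.427). Zfp423 was under 1 TPM in every library and was not tested. Its TPM was 0.170, 0.220 and 0.0400 in the fBM-MSCs, 0.240 and 0.980 in the vBM-MSCs, 0.120, 0 and 0 in the A-MSCs and 0.0400, 0.0300 and 0.0800 in the P-MSCs. Only vBM-MSC replicate 2, with 113 counts, stood above 23 counts.

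Among the lipid genes, Lpl (chr8:68880555-68906932) was highest in adipose MSCs. Its TPM was 15.8, 14.7 and 20.4 in the A-MSCs and 5.38, 5.55 and 5.84 in the P-MSCs. In the fBM-MSCs it was 0.750, 0.600 and 2.97, and in the vBM-MSCs 0.0300 and 5.79. Every A-MSC library was above every other, and vBM-MSC replicate 2 reached the level of the P-MSCs. Lpl was lower in marrow than in non-marrow MSCs, with a log2 fold of -2.26 ± 0.71 (adjusted p = 0.0211), and of -5.55 without vBM-MSC replicate 2 (adjusted p = 0.000137), a value that rests on the single vBM-MSC library left, with 2 counts. It was lower in fBM-MSCs than in A-MSCs by a log2 difference of -3.59 ± 0.97 (adjusted p = 0.0120, and -4.74 without fBM-MSC replicate 3), whereas P-MSCs and vBM-MSCs (adjusted p = 0.500) and vBM-MSCs and fBM-MSCs (0.623) overlapped and did not pass. The 2 vBM-MSC libraries held 2 and 544 counts of Lpl, so no order of the vBM-MSCs is read from their mean. Without vBM-MSC replicate 2, the log2 difference of fBM-MSCs minus vBM-MSCs moved from -0.86 to 5.73. That of vBM-MSCs minus P-MSCs moved from -0.93 to -7.52, and both rest on the single library with 2 counts. A-MSCs and P-MSCs lay apart by more than their spread, at a log2 difference of 1.80. This pair missed the threshold in the fit of all tissues (adjusted p = 0.148), which shares 1 estimate of the spread with the far-apart vBM-MSC libraries, and passed with only these 2 tissues (1.98e-06) or without either vBM-MSC library (0.0123). The fBM-MSCs and P-MSCs (log2 difference -1.79, adjusted p = 0.131) likewise passed with only these 2 tissues (0.0279) or without either vBM-MSC library (0.0100 and 0.00996), and vBM-MSCs and A-MSCs (-2.73, adjusted p = 0.0882) passed by limma-trend (0.00639 and 0.0186).

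Fabp4 (chr3:10204342-10208616), a direct target of PPARG, had the largest gap between A-MSCs and P-MSCs among the genes with counts in both. Its TPM was 118, 42.4 and 140.1 in the A-MSCs and 3.84, 2.68 and 2.71 in the P-MSCs. It was 31.1, 27.4 and 64.0 in the fBM-MSCs and 22.0 and 58.8 in the vBM-MSCs. Every P-MSC library was below every other library, and A-MSC replicate 2 fell within the range of the marrow libraries. The A-MSC level exceeded that of P-MSCs by 5.24 ± 0.58 on the log2 scale (adjusted p = 0.000106), and the fBM-MSC and vBM-MSC levels did so by 3.85 ± 0.56 (0.000184) and 3.72 ± 0.58 (0.000477). fBM-MSCs were below A-MSCs (-1.39 ± 0.48, adjusted p = 0.0369), a call lost without fBM-MSC replicate 1 (0.0998), fBM-MSC replicate 2 (0.122), A-MSC replicate 1 (0.109) or A-MSC replicate 3 (0.131), and with library totals only, limma-trend or only the 2 tissues (0.0537 to 0.0578). The difference between vBM-MSCs and A-MSCs was -1.52 and missed the threshold (adjusted p = 0.0643), but it passed by DESeq2 (0.0150), with no filter on low counts (0.0438), without fBM-MSC replicate 3 (0.0374) or without A-MSC replicate 2 (0.0188). The fold of marrow over non-marrow MSCs was 1.16 ± 0.37 (adjusted p = 0.0222). It was lost without vBM-MSC replicate 2 (0.83, adjusted p = 0.120), P-MSC replicate 2 (0.0522) or P-MSC replicate 3 (0.0531).

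Plin2 (chr4:86656565-86670059) was abundant everywhere and lowest in adipose MSCs. Its TPM was 269, 319 and 272 in the fBM-MSCs, 217 and 278 in the vBM-MSCs, 157, 159 and 154 in the A-MSCs and 310.5, 328 and 292 in the P-MSCs. The A-MSC libraries lay close together and below all others. Plin2 was higher in fBM-MSCs than in A-MSCs by 0.80 ± 0.09 on the log2 scale (adjusted p = 6.49e-05) and in vBM-MSCs than in A-MSCs by 0.53 ± 0.10 (0.00316). A-MSCs differed from P-MSCs by -0.79 ± 0.09 (0.000152). fBM-MSCs and P-MSCs overlapped and did not pass (0.01 ± 0.09, adjusted p = 0.961), nor did fBM-MSCs and vBM-MSCs (0.26 ± 0.10, adjusted p = 0.119, but 0.0474 by DESeq2). vBM-MSCs and P-MSCs missed the threshold (-0.26, adjusted p = 0.0702) but passed by DESeq2 (0.0372), by limma-trend (0.0384 and 0.0397), with library totals only (0.0332) or with the replicate block (0.0445). The marrow against non-marrow fold was small, 0.27 ± 0.07 (adjusted p = 0.00683).

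Adipoq (chr16:23146536-23157968) was found in some libraries only. Its TPM was 1.82, 0 and 0.270 in the fBM-MSCs, 0 and 3.87 in the vBM-MSCs, 2.69, 0 and 14.6 in the A-MSCs and 0 in each P-MSC library. Of its 424 counts in A-MSCs, 366 came from replicate 3, and no A-MSC count came from replicate 2. Over the group, the A-MSC level was at least 137-fold higher than a floor of 3 counts over the P-MSCs, counting error only. The call between A-MSCs and P-MSCs was at the threshold (adjusted p = 0.0442) and was lost without A-MSC replicate 1 (0.0690), A-MSC replicate 3 (0.124) or any P-MSC replicate (0.101 to 0.106), by limma-trend at either pseudocount (0.0870 and 0.0929) or with the replicate block (0.102). No other pair of tissues passed for Adipoq, although vBM-MSCs and P-MSCs (adjusted p = 0.0815) did with no filter on low counts (0.0463) or without A-MSC replicate 2 (0.0496).

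By pair of tissues, 5 of the 9 genes differed between fBM-MSCs and A-MSCs (40.9% of all genes) and 5 between fBM-MSCs and P-MSCs (47.7%). Between vBM-MSCs and A-MSCs 2 did (25.6%), between vBM-MSCs and P-MSCs 3 (38.7%) and between A-MSCs and P-MSCs 6 (30.9%). The pairs share groups, so these counts are not independent. In the pair A-MSCs and P-MSCs, Cebpa, Ebf2, Fabp4 and Adipoq were higher in A-MSCs and Cebpd and Plin2 were higher in P-MSCs. Against P-MSCs, fBM-MSCs were higher in Pparg, Cebpa, Ebf2 and Fabp4 and lower in Cebpd.

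The 2 libraries with the highest Pparg and Cebpa, fBM-MSC replicate 3 and vBM-MSC replicate 2, were also the highest marrow libraries of Fabp4 (64.0 and 58.8) and Lpl (2.97 and 5.79). For Adipoq, vBM-MSC replicate 2 was the highest marrow library (3.87), whereas fBM-MSC replicate 3 was at 0.270. Ebf2 differed, since it was 0.130 in fBM-MSC replicate 3 and 2.10 in vBM-MSC replicate 2. With 5 marrow libraries this is a description of which libraries were high.

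Markers of mature adipocytes were low throughout. The summed TPM of 9 adipocyte markers (Adipoq among them) was 3.70 to 11.4 in the fBM-MSCs, 2.61 to 7.52 in the vBM-MSCs, 1.86 to 33.6 in the A-MSCs and 0.680 to 0.990 in the P-MSCs. Lep was 0 in all 11 libraries and Plin1, which coats the droplets of mature adipocytes, was 0 outside the A-MSCs and at most 1.97 in them. The highest A-MSC sum, 33.6, was that of replicate 3, and Adipoq itself made up 14.6 of it. That library also had the highest Fabp4 and Lpl. By mean TPM, Lipe, Plin4 and Car3 of the list were highest in fBM-MSCs and the other detected markers in A-MSCs. The part of mature adipocytes in the levels of the 10 genes was not tested.

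Markers of other cells also moved with tissue. The 6 endothelial markers summed to 3.53 to 55.5 in the A-MSCs, with Emcn at 49.5 in replicate 1, against 2.55 to 8.29 in the P-MSCs and at most 1.19 in the marrow libraries. Kdr alone of this list had its highest mean outside the A-MSCs, at 2.33 to 2.84 in the P-MSCs against 0.160 to 0.550 in the A-MSCs. The 8 macrophage markers summed to 40.9 to 69.2 in the fBM-MSCs, 21.8 to 50.9 in the vBM-MSCs, 16.2 to 25.1 in the A-MSCs and 9.40 to 12.2 in the P-MSCs, while the defining genes Ptprc, Adgre1 and Itgam were at most 0.350. The sum was mostly Lyz2, Cd68 and Fcer1g, and Csf1r, the receptor of a macrophage growth factor, had another order, at 0.600 to 1.16 in marrow, 2.21 to 2.76 in the P-MSCs and 5.46 to 6.56 in the A-MSCs. The 5 mesothelial markers summed to 47.6 to 58.1 in the A-MSCs and 54.0 to 62.9 in the P-MSCs, the latter mostly Krt19, and to at most 12.3 in the marrow libraries, with Wt1 only in the A-MSCs (10.6 to 14.9). The 6 epithelial markers, Krt19 among them, summed to 17.6 to 28.0 in the A-MSCs and 51.7 to 60.5 in the P-MSCs, and to at most 12.2 in the marrow libraries, with Sftpc at 0 throughout. The 8 MSC markers were all detected, with sums of 1744 to 3629.7, although Pdgfra was at most 0.760 in the fBM-MSCs. LPL and FABP4 are also made by macrophages, and FABP4 by endothelial cells, and the part of those cells in the levels was not tested.

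The genes around the 10, in 8 wider lists of 86 genes of fat cell biology, give the setting. Of these, 68 were tested and 51 differed among the 4 tissues (75.0%, against 60.6% of all tested genes). The lists were chosen with earlier results of these data known, so their shares are a description only. In marrow, 24.8% of all tested genes were higher and 22.4% lower, and the counts of each list below stand against these shares. Of 14 regulators that promote adipogenesis, 11 were called (78.6%), 7 higher and 3 lower in marrow, with a median log2 fold of 0.52, where the median of all tested genes was 0.03. Egr2, an early inducer of adipogenesis, was 8.35, 8.12 and 2.08 in the fBM-MSCs, 32.6 and 25.0 in the vBM-MSCs, 15.3, 12.7 and 21.0 in the A-MSCs and 0.310 to 0.930 in the P-MSCs (adjusted p = 6.36e-05). Ebf1, which acts with Ebf2, ranged from 4.52 to 13.9 in the marrow libraries, from 6.38 to 7.27 in the A-MSCs and from 1.18 to 1.83 in the P-MSCs (8.58e-05). P-MSCs held the lowest Egr2 and Ebf1, as they did Ebf2. By mean TPM, as for the other genes of these lists named by their highest or lowest tissue, Zfp467 (adjusted p = 0.00174) was highest in fBM-MSCs. Klf5 (0.0153) was lower in marrow by a log2 fold of -1.77 (adjusted p = 0.00320), and A-MSCs and P-MSCs did not pass (0.10, adjusted p = 0.897).

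Of 9 regulators that restrain adipogenesis, 8 were called (88.9%, against 60.6%), 3 higher and 4 lower in marrow (median log2 fold 0.34). Gata2, which holds preadipocytes back, was 4.77, 5.01 and 2.42 in the fBM-MSCs, 6.74 and 13.9 in the vBM-MSCs, 14.8 to 21.6 in the A-MSCs and 17.0 to 19.4 in the P-MSCs (adjusted p = 0.000274). Nr2f2 (0.000891) and Klf2 (0.000772) were likewise lowest in fBM-MSCs, at 2.23 to 6.11 and 3.97 to 9.60. Sox9 was lowest in P-MSCs, at 1.53 to 2.87 (5.30e-05).

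For lipid droplets and lipolysis, 7 of 9 tested genes were called (77.8%, against 60.6%) and 6 were higher in marrow, with none lower (median 0.39). Mgll, the lipase of monoglycerides, was 33.3 to 38.6 in the fBM-MSCs, 21.8 and 30.3 in the vBM-MSCs, 14.5 to 17.0 in the A-MSCs and 5.86 to 6.90 in the P-MSCs (adjusted p = 4.60e-07). Bscl2 (seipin, which shapes new droplets) was 84.4 to 135 in the marrow libraries, 49.0 to 61.2 in the A-MSCs and 33.1 to 34.8 in the P-MSCs (1.66e-05). These 2 genes ran in the order marrow, adipose and lung, as Cebpa did. G0s2 (0.00299) and Plin4 (0.0291) were highest in fBM-MSCs, as Mgll was, and the droplet genes Plin1, Plin5, Cidea and Cidec were too low to be tested.

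Fatty acid uptake and binding had 8 of 12 tested genes called (66.7%, near the 60.6% of all), 5 higher and 1 lower in marrow (median 0.11). Fabp5 was 46.8, 84.2 and 196 in the fBM-MSCs, 717 and 435 in the vBM-MSCs, 353 to 424 in the A-MSCs and 263 to 304 in the P-MSCs (0.00369), so that the fatty acid carriers Fabp4 and Fabp5 did not share their order of tissues. Fabp7 (0.000418) was 8.46 to 39.0 in marrow and at most 4.93 elsewhere, and the fatty acid transporter Cd36 (0.00112) reached 6.17 in A-MSC replicate 3 and 0.910 outside the A-MSCs. Slc27a1 (0.00244) was highest in fBM-MSCs. Fatty acid and triglyceride synthesis had 9 of 12 called (75.0%), 4 higher and 3 lower in marrow (median -0.20). Elovl6, an elongase, was 9.41 to 11 in the P-MSCs and 2.20 to 3.19 elsewhere (4.18e-06), and Fasn (fatty acid synthase) 10.4 to 12.9 in the P-MSCs and 4.23 to 7.80 elsewhere (0.0104). Lpin1 (0.000144) was highest in fBM-MSCs and Gpam (0.00134) in A-MSCs.

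Of 6 other adipokines, 3 were tested and only Apln was called (0.000163), highest in P-MSCs at 7.11 to 8.58, with none of the list higher and 1 lower in marrow (median 0.15). Lep, Retn and Cfd were too low to be tested. Adipocyte progenitor markers had 6 of 7 called (85.7%, against 60.6%), 3 higher and 2 lower in marrow (median -0.17). Ly6a was 256 to 805 in marrow, 114 to 145 in the A-MSCs and 42.3 to 46.5 in the P-MSCs (2.38e-06), and F3 was 21.4 to 37.1 in the fBM-MSCs and 435 to 1008 elsewhere (4.69e-06). Icam1 (1.39e-05) was highest in vBM-MSCs and Pdgfra (5.24e-05) in A-MSCs. Of 8 thermogenic genes 2 were tested, and Dio2 was called at a highest TPM of 1.24, in vBM-MSC replicate 1 (0.000985), with 1 of the list higher in marrow (median 2.23). The marrow groups were unlike, since Dio2 was lower in fBM-MSCs than in vBM-MSCs (log2 difference -4.27, adjusted p = 0.0208) and than in P-MSCs (-2.44, 0.0464). Ucp1, Ppargc1a, Cox8b, Elovl3, Tbx1 and Tmem26 were too low to be tested.

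For tested members whose highest tissue mean was at least 4 times the lowest, whether or not the test among tissues passed, the most similar genes were taken as the 3 with the smallest mean absolute difference in log2(TPM + 1) over the 11 libraries, each gene centred on its own mean. For Cebpa these were Vkorc1 (0.16), Abhd4 (0.18) and Tcn2 (0.18), where Cebpa itself deviated from its mean by 0.73 on average. For Fabp4 they were Ramp1 (0.44), Ucp2 (0.49) and Lmcd1 (0.54), against its own 1.50. For Lpl they were Crispld2 (0.47), Flt1 (0.47) and Slc43a1 (0.53), against 1.14. For Ebf2 they were Cryab (0.33), Vgf (0.35) and Timp1 (0.35), against 0.81. For Adipoq they were Rarres2 (0.55), Cd36 (0.57) and Rbp4 (0.61), against 1.09. By the nearest gene of each, Cebpa had the closest companion and Adipoq the most distant. This scale compresses differences among low levels, so a small distance does not mean an equal fold. From fBM-MSCs to P-MSCs, mean TPM fell from 433 to 112 for Vkorc1 and from 3.26 to 0.0733 for Cebpa. Ucp2 was 13.4, 16.9, 19.8 and 0.753 on average in the fBM-MSCs, vBM-MSCs, A-MSCs and P-MSCs, low in P-MSCs as Fabp4 was.

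Chromatin at the same genes was read from the pooled ATAC-seq summits. At the threshold of the study (−log10 q of 7), the lists held 71345 summits for A-MSCs and 64057 for P-MSCs, and 64300 and 59536 for fBM-MSCs and vBM-MSCs. The deposited fold enrichments moved in steps of 0.368 in each of the 4 lists, and the threshold fell at 5.52 in each. Folds of 5.52 and 5.89 are therefore neighbouring values, and a summit near 5.52 in 1 tissue and absent in another is a small difference. No replicate check of these values can be made.

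**Figure D3:**
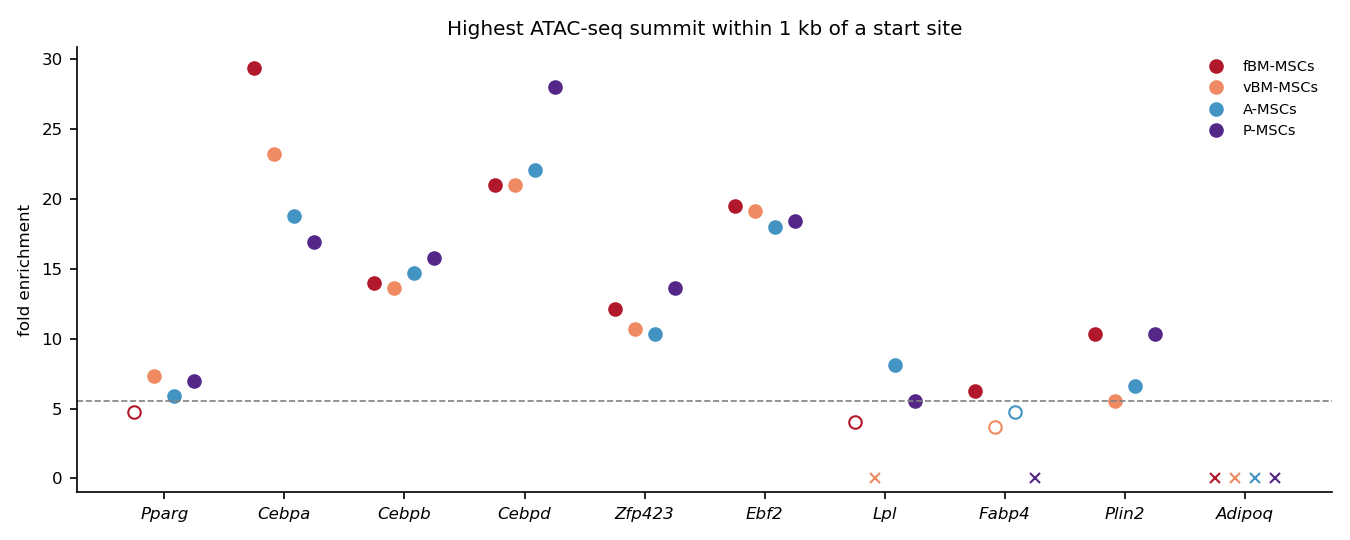
Highest fold enrichment of an ATAC-seq summit within 1 kb of a start site, by gene and tissue. Filled points passed −log10 q of 7 (dashed line at 5.52), open points were listed below it, and crosses at 0 mark no listed summit; Cebpa ran from 29.4 in fBM-MSCs to 16.9 in P-MSCs, and Adipoq had none.

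A summit within 1 kb of a start site was present in all 4 tissues for 6 of the 10 genes, where this held for 48.1% of 22153 genes. The 6 were Cebpa, Cebpb, Cebpd, Zfp423, Ebf2 and Plin2, so 5 of the 6 transcription factors but 1 of the 4 lipid genes. Zfp423 and Ebf2 have 2 curated start sites each. At both genes the summit stood at 1 of them only, and the other, that of 2 of the 3 transcripts of Ebf2, had none past the threshold in any tissue. The Zfp423 summit lay 573 to 595 bases into the gene. By tissue, such a summit stood at 8 of the 10 genes for A-MSCs (54.2% of all genes), 8 for P-MSCs (53.3%), 7 for fBM-MSCs (52.2%) and 7 for vBM-MSCs (53.2%). Open start sites went with abundant RNA at Cebpb and Cebpd but not at Zfp423, whose start site had folds of 12.1, 10.7, 10.3 and 13.6 in the fBM-MSCs, vBM-MSCs, A-MSCs and P-MSCs beside a TPM under 1, nor at Ebf2, whose downstream start site had a fold of 18.4 in the P-MSCs beside a mean TPM of 0.130 for the gene.

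At Cebpa the start site summit lay 153 to 190 bases before the start, inside the window printed above. Its fold enrichment was 29.4 (fBM-MSCs) and 23.2 (vBM-MSCs) in marrow, against 18.8 (A-MSCs) and 16.9 (P-MSCs), the order of the mean TPM. In fBM-MSCs it stood at percentile 97.5 of all summits of that list and in P-MSCs at 79.4. The site was thus still among the stronger summits of the P-MSCs, where the RNA was nearly absent. The other sites of Cebpa had other orders. The site 7992 bases after the start, found in all 4 tissues, had folds of 14.3, 6.25, 11.8 and 7.72 in the fBM-MSCs, vBM-MSCs, A-MSCs and P-MSCs, lowest in vBM-MSCs, and one 801 bases upstream was strongest in A-MSCs (11.4) and absent in fBM-MSCs. Cebpd had its highest start site fold in P-MSCs (28.0, against 21.0, 21.0 and 22.1), the tissue with its highest TPM, but A-MSCs, with the lowest TPM, were not the lowest in fold. Cebpb folds were 14.0, 13.6, 14.7 and 15.8.

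Pparg has 4 curated start sites. The 2 farthest upstream had a weak summit in vBM-MSCs (7.36), A-MSCs (5.89) and P-MSCs (6.99), and in fBM-MSCs the summit was listed below the threshold at 4.78. The next start site had only summits below the threshold within 1 kb, 4.41 in fBM-MSCs and 5.15 in vBM-MSCs. The start site of Pparg2, whose window is printed above with its 2 C/EBP matches, had no summit past the threshold within 1 kb in any tissue. A summit of fold 3.68 was listed there in fBM-MSCs, 204 bases before the start and below the threshold. The strongest summits of the locus lay inside and behind the gene. An exonic summit 41042 bases after the Pparg2 start had folds of 8.83, 10.3, 15.5 and 18.0 in the fBM-MSCs, vBM-MSCs, A-MSCs and P-MSCs. An intronic summit 58402 bases after it had 10.3, 11.4, 16.2 and 12.1. The last, 71583 bases after it and downstream of the gene, had 9.56, 8.09, 14.0 and 17.3. At each of these 3 sites both marrow groups had lower folds than A-MSCs and P-MSCs, whereas Pparg RNA was higher in marrow. The lists differ in their median fold (8.46 in both marrow lists, 9.20 for A-MSCs and 9.56 for P-MSCs), and by percentile within each list the intronic site was higher in vBM-MSCs (68.2) than in P-MSCs (64.3).

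Of the lipid genes, Lpl had a start site summit in A-MSCs (8.09) and a threshold one in P-MSCs (5.52), with none at the threshold in the marrow groups. The first intron of Lpl held a further summit, 10.7 in A-MSCs and 5.52 in the P-MSCs. A-MSCs, with the highest Lpl RNA, had 5 summits at Lpl with none of another tissue within 250 bases, and a site 28151 bases after the start was shared by all 4 tissues at folds of 11, 13.2, 13.2 and 18.4. Fabp4 went another way. Its start site had a summit past the threshold in fBM-MSCs (6.25), a listed summit below it in A-MSCs (4.78) and vBM-MSCs (3.68), and none listed in P-MSCs, although its RNA was highest in A-MSCs. An intragenic Fabp4 summit was found in A-MSCs (6.62) and fBM-MSCs (6.25). Plin2 had a summit at its start site in the fBM-MSCs (10.3), A-MSCs (6.62) and P-MSCs (10.3), whereas in vBM-MSCs the only summit within 1 kb lay 668 bases into the gene, at the threshold (5.52). A site 4214 bases upstream had folds of 9.93 (vBM-MSCs), 12.1 (A-MSCs) and 17.7 (P-MSCs). Adipoq had no summit listed within 1 kb of its start site in any tissue, and its nearest was 2012 bases upstream, in fBM-MSCs (6.99).

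**Figure D4:**
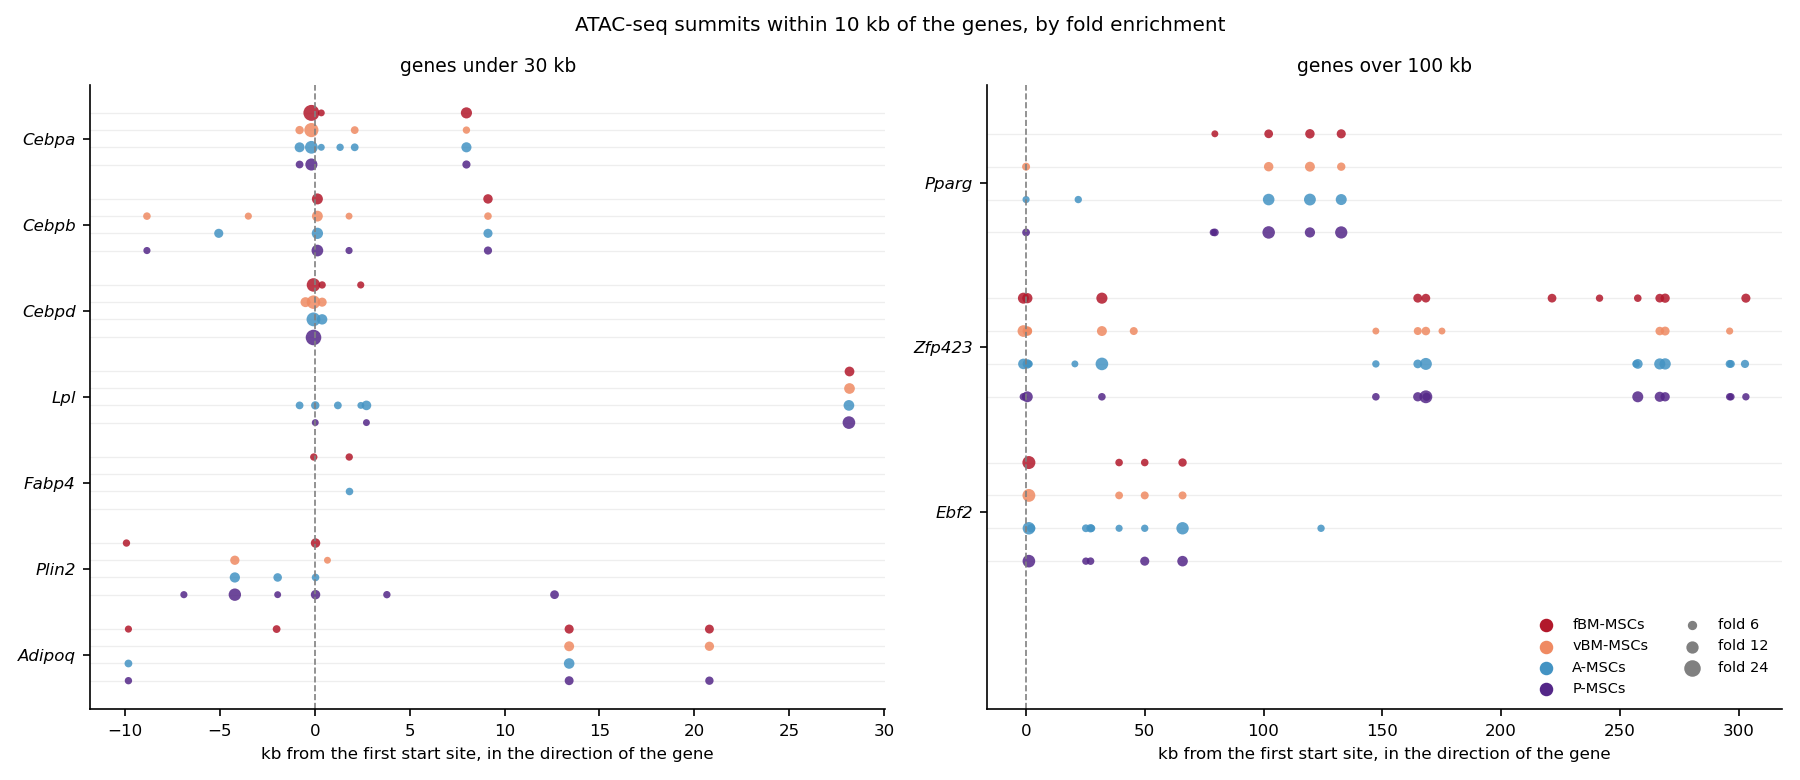
ATAC-seq summits past −log10 q of 7 within 10 kb of each gene, placed in kb from its first start site in the direction of the gene; colours are tissues and dot areas scale with fold enrichment. A-MSCs had the most summits (58) and, at Lpl and Ebf2, rows of dots found in no other tissue.

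Within the gene bodies and 10 kb around them, the 10 genes held 58 summits of A-MSCs, 44 of P-MSCs, 40 of fBM-MSCs and 39 of vBM-MSCs, which fell into 74 sites. The windows also held start sites of A530013C23Rik at Cebpb, Fabp9 at Fabp4, and 4930438E09Rik and Gm6878 at Ebf2, so a summit there cannot be assigned to 1 gene. Of the sites, 20 were found in all 4 tissues and 29 in only 1, with no share over all sites to set beside these counts. Counting summits with none of another tissue within 250 bases, A-MSCs had 16 of 58 (27.6%), against 15.6% of all A-MSC summits. Their 16 were 5 at Lpl, 4 at Ebf2, 4 at Zfp423 and 1 each at Pparg, Cebpa and Cebpb. fBM-MSCs had 6 of 40 (15.0%, against 18.0%), vBM-MSCs 5 of 39 (12.8%, against 12.9%) and P-MSCs 5 of 44 (11.4%, against 13.1%). Most of the A-MSC sites had a weaker summit listed elsewhere, since with all listed summits as partners 5 of the 16 were left.

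Of the sites near the 6 genes with RefSeq windows, 2 are printed as examples that hold motifs, each the strongest summit with 50 bases on either side, on the plus strand of GRCm38.p6, with the same capitals as above. The Pparg site lies in an intron, 58402 bases after the Pparg2 start, at chr6:115480418-115480518. The Plin2 site lies 1957 bases upstream of the start, at chr4:86671966-86672066, and was found in A-MSCs (8.46) and P-MSCs (5.52).
Pparg intron: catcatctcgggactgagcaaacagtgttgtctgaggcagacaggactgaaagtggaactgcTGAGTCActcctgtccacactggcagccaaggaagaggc
Plin2 upstream: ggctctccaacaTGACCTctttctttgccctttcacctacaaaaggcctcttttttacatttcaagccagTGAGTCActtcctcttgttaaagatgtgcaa
The Pparg site holds an AP-1 match, and the Plin2 site an AP-1 match and a PPAR element. An AP-1 match was found in 7 of 28 fBM-MSC windows near the 6 genes (21.7% of all windows of that list), 6 of 31 vBM-MSC windows (15.1%), 7 of 37 A-MSC windows (18.0%) and 9 of 35 P-MSC windows (22.3%). PPAR elements were found in 5, 4, 4 and 4 of the same windows, where 6.21%, 6.01%, 6.52% and 6.56% of all windows held one. C/EBP matches were found in 0, 0, 1 and 1 of them (4.35%, 4.99%, 4.76% and 4.49%), and EBF matches in 2, 2, 3 and 2 (4.48%, 4.89%, 4.80% and 4.17%). The windows of different tissues at a shared site overlap, so these counts are not independent, and a match is a description of letters only.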

How the data were processed

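RNA-seq of 11 libraries and ATAC-seq of the same 4 tissues were analysed from processed files. For RNA-seq the authors ran RSEM with STAR on paired Smart-seq2 reads (polyadenylated RNA, not strand-specific, no molecular identifiers) against mm10. The deposited expected counts are RSEM estimates and are not normalized, and the authors' TPM values are scaled for effective length. For ATAC-seq the authors aligned with Bowtie, removed duplicates, shifted reads for the transposase and called summits with MACS2 on pooled samples (6 records per tissue, which are 3 replicates sequenced in 2 runs each), and the deposited lists give fold enrichment as a ratio and the −log10 q. Tool versions are not given in the sources used here.

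Expected counts were rounded and fitted with edgeR 4.0.16 under R 4.3.3 (two-sided quasi-likelihood test after TMM scaling, adjusted p under 0.05 by Benjamini-Hochberg over the 12509 genes that reached a CPM of 1 in 2 libraries or more), with tissue as the only factor. The scripts were tested on simulated data. Alternatives were DESeq2, limma-trend on log2(TPM + 1) or log2(TPM + 0.1), other scalings and filters, a replicate block, the 2 tissues alone, and leaving out each library. Summits at −log10 q of at least 7 were placed on curated RefSeq transcripts of GRCm38.p6.

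The 10 genes and all lists were chosen with earlier results of these data known. Of each wider list, up to 4 genes called among the 4 tissues with the largest ratio of highest to lowest tissue mean of TPM + 1 are named. Genes most like a member are given for tested members whose highest tissue mean is at least 4 times the lowest.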

Additional observations from a re-analysis of the deposited data

Results flagged for a closer look

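In 1 of 20 groups examined, a library stood apart from the rest. In the 5 marrow libraries, Zfp423 was 0.980 TPM in vBM-MSC replicate 2 and 0.0400 to 0.240 in the other four, a gap of 0.727 of the group's range on the log2(TPM + 1) scale. The nominal rate of the rule is about 1 group in 20, which was not checked on these data, and all of these levels are low.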

How the results depend on the processing

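The members' counts rested on few libraries. Over the fits without 1 library each, the count of members differing among the 4 tissues ranged from 5 to 8, that of members higher in marrow MSCs from 2 to 5 and that of members lower from 1 to 2. The count ranged from 0 to 2 between fBM-MSCs and vBM-MSCs, from 2 to 5 between fBM-MSCs and A-MSCs and from 2 to 4 between vBM-MSCs and A-MSCs. Between fBM-MSCs and vBM-MSCs, where Cebpb was called, the count was 0 with library totals only, 0 with only the 2 tissues, and 2 by DESeq2. Between fBM-MSCs and A-MSCs it was 3 with only the 2 tissues. Between vBM-MSCs and A-MSCs it was 4 by DESeq2 and by limma-trend at either pseudocount, and between vBM-MSCs and P-MSCs it was 5 by DESeq2 and 5 with no filter on low counts. The Adipoq fold of marrow over non-marrow MSCs, which passed no test, changed sign under limma-trend on log2(TPM + 1) (-0.10) and without vBM-MSC replicate 2 (-1.59, the lowest of the fits without 1 library, the highest being 3.65). Scaling by library totals moved the median of all genes between A-MSCs and P-MSCs by -0.23.

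The deviations of same-numbered libraries from their group means correlated at r from -0.028 to 0.125 (15 pairs, median 0.007) and those of other pairs at -0.125 to 0.109 (30 pairs, median -0.005). Of the 11 libraries, 5 were closest to their own number, a hint from the data only, and the numbers were not taken as pairs. With the replicate block, 7 members differed among the 4 tissues, 4 were higher and 1 lower in marrow, and 51 genes of the wider lists differed among the 4 tissues. It lost Cebpb among the 4 tissues (adjusted p = 0.0540) and between the marrow groups (0.0672). The replicate block gave 0 members between fBM-MSCs and vBM-MSCs, 5 between fBM-MSCs and A-MSCs, 5 between fBM-MSCs and P-MSCs, 2 between vBM-MSCs and A-MSCs, 4 between vBM-MSCs and P-MSCs and 5 between A-MSCs and P-MSCs.

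For chromatin, the 6 members with a start site summit in all 4 tissues became 5 at −log10 q of 20, 7 with all listed summits and 4 within 500 bases. The 32 summits found in 1 tissue only became 6 at −log10 q of 20, 11 with all listed summits as partners and 53 within 50 kb. At −log10 q of 20 they were 4 for A-MSCs, 0 for P-MSCs, 1 for fBM-MSCs and 1 for vBM-MSCs, and with all listed summits as partners 5, 1, 3 and 2. Within 50 kb they were 28 in A-MSCs and 10 in P-MSCs, and with overlapping regions counted as shared 3 in vBM-MSCs and 10 in A-MSCs. Shares over all genes or summits were not computed at these settings, and the causes were not tested. Depth limits what low counts can show: 3 counts corresponded to 0.0740 to 0.153 CPM.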
